A study of Mus musculus with 36 samples.

Results

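The genes described here are 9 genes of transforming growth factor beta (TGF-beta) and YAP signaling, out of 15289 genes in the study's expression table. They were taken by symbol as genes of the pathway that a TGF-beta receptor inhibitor acts on. Ctgf, Cyr61, Thbs1, Tgfbi, Skil and Smad7 are known targets of TGF-beta, YAP or both, whereas Inhba, Tgfb1 and Tgfb2 encode ligands or ligand subunits, although Inhba is also known as a TGF-beta target. All 9 symbols were found, each in a single row.

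The study treated mouse embryonic fibroblasts with 5 chemicals in an induction medium and measured RNA from the starting cells, from intermediates and from the photoreceptor-like cells obtained at day 11. All cells came from a strain labelled Nrl-GFP, in which the promoter of Nrl, a rod transcription factor, drives green fluorescent protein, and cells were sorted by promoter reporter expression. The groups were untreated fibroblasts at passage 2 (MEF, n = 3), treated cells at day 5 (n = 3) and day 8 (n = 3), and the day 11 cells, called CiPC (n = 3). The natural cells set beside them were rods of 7 postnatal ages, named by the day after birth as P2 and P4 (n = 2 each), P5, P6 and P14 (n = 3 each), and P10 and P28 (n = 4 each). For P5 rods and the cultured cells the labels list no earlier series. The remaining rods list an earlier one, except P10 replicate 3 and P14 replicate 3, which list no earlier sample. The labels do not name the chemicals or say on which days each was present. The published protocol for this conversion is known to include RepSox, an inhibitor of the type I TGF-beta receptor, together with forskolin, valproic acid, a GSK3 inhibitor and a Wnt pathway inhibitor.

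TGF-beta family ligands bind paired receptor kinases that phosphorylate Smad proteins, which then enter the nucleus and switch on genes for matrix proteins, contractile proteins and the pathway's own inhibitors. YAP and its relative TAZ are coactivators held in the cytoplasm by the Hippo kinases; in spread, contractile cells such as cultured fibroblasts they enter the nucleus and act through TEAD factors. The programs overlap, and Ctgf and Cyr61 respond to both in many cell types.

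Promoter sequences, 250 bases before to 50 bases after the annotated start (RefSeq, GRCm38.p6), were found for 5 of the 9 genes. They were searched on both strands for the TEAD letters GGAATG, the Smad-type CAGA box CAGACA, the AP-1 letters TGANTCA and the CArG box. None of these letters overlapped another in the 5 promoters, and Tgfbi, Inhba and Tgfb1 held none of them. Of 32817 mouse promoters of the same length, 14.7% held the TEAD letters, 21% the CAGA box, 7.81% the AP-1 letters and 1.63% the CArG box. Shown first are Cyr61 and Tgfb2, because they were the only members not lower in CiPC than in MEF, and then Inhba, because it had the largest reduction there. The Cyr61 promoter lies on the minus strand at chr3:145649936-145650235, and its capitals mark the TEAD letters, read on the opposite strand, at position -103 from the start. The Tgfb2 promoter lies on the minus strand at chr1:186705940-186706239, with a CAGA box in capitals at position -204. The Inhba promoter lies on the plus strand at chr13:16011601-16011900 and has no capitals because it held no match. A match describes the letters in this window and says nothing about binding.
Cyr61: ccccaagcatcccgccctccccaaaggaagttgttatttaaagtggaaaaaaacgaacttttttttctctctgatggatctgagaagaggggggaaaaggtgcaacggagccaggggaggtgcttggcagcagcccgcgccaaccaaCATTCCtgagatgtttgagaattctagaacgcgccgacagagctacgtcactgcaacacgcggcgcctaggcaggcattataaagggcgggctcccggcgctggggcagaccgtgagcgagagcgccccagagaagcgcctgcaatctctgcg
Tgfb2: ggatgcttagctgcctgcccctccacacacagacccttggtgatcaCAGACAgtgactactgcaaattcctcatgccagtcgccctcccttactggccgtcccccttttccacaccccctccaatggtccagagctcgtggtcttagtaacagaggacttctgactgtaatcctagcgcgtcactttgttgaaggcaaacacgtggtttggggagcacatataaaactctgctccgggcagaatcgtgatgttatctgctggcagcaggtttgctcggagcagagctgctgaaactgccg
Inhba: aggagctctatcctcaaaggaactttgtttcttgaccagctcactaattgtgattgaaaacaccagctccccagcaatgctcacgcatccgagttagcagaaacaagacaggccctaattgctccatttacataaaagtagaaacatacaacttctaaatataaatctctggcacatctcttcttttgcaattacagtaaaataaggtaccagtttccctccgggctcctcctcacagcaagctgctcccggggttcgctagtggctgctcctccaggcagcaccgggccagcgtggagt

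Values are the authors' normalized CPM (read counts scaled for library size), which are not divided by gene length, so no level is compared between genes. Differences are limma estimates on log2(CPM + 1) with their standard error (SE), and a gene was called higher or lower at a Benjamini-Hochberg adjusted p under 0.05 over all genes tested and a difference of at least 2-fold. The column sums ran from 719752 to 2277242, and the 10 highest genes took 3.39% to 30.8% of a column. The read depth is unknown, no libraries were identical, and nothing in the labels ties replicates to separate cultures or animals, so the p-values may measure technical spread alone. In these bulk libraries, fewer cells of a type and less RNA per cell cannot be told apart. Marker genes placed the groups as labelled: the summed level of 9 rod genes was 346368 to 519252 CPM in P28 rods, 4732 to 4877 in P5 rods and 3.57 to 4.12 in MEF. In CiPC it was 242 to 261 CPM with a mean of 1 CPM or more for each of the 9, which lies below that of the P2 rods (3236 to 3326 CPM).

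Most of these genes fell in the early treated cells. At day 5, 7 of the 9 were lower than in MEF, Tgfb2 was higher, and Tgfbi was higher but under the 2-fold threshold. Among all 13598 genes tested, 13.7% were called lower, 14.7% higher and 28.4% in either direction. The median difference of the 9 genes was -3.06 on the log2 scale, beside 0.01 for all genes.

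**Figure D1:**
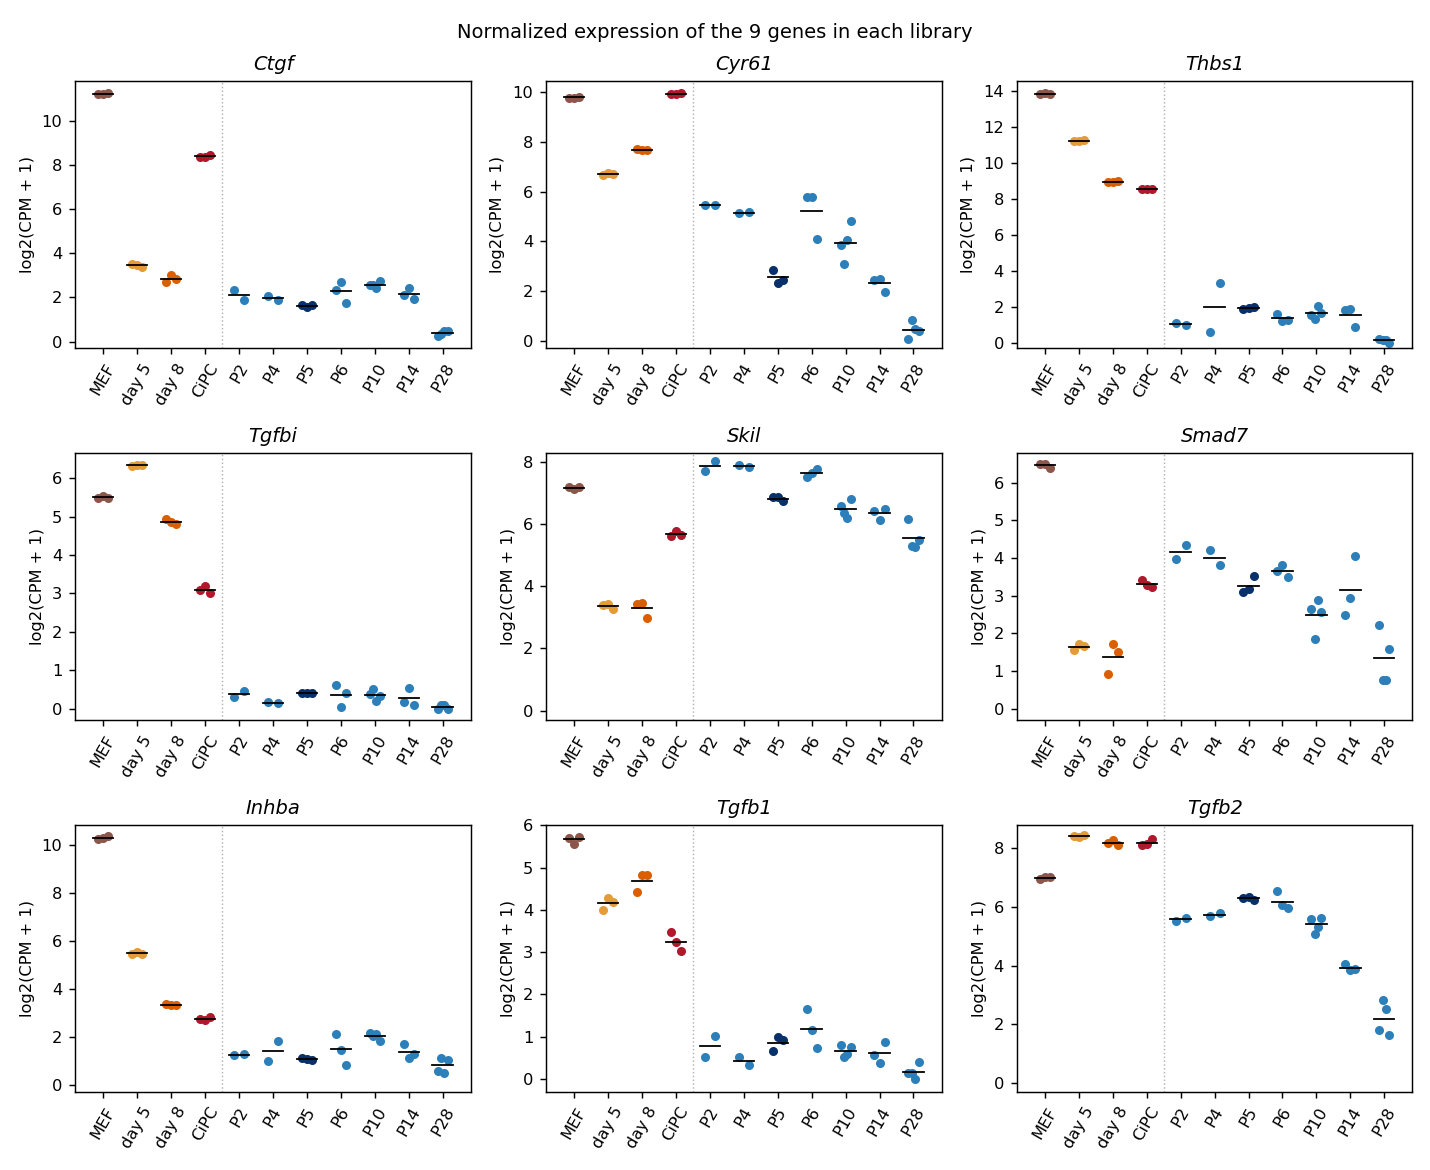
Normalized CPM on a log2(CPM + 1) axis for each of the 9 genes, with each point a library and each bar the group mean of the plotted values, in MEF, day 5, day 8, CiPC and the rods by age. The replicates of the cultured groups nearly coincide, Ctgf stands at 5.57 to 10.3 CPM at days 5 and 8 and at 325 to 347 CPM in CiPC, and Tgfb2 is higher in all treated libraries than in all MEF libraries.

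Among the ligands, Inhba encodes the subunit that forms activin A, a ligand that signals through the same Smads as TGF-beta. It measured 1231, 1259 and 1313 CPM in MEF, 42.9, 45.5 and 43.2 CPM at day 5, 9.43, 9.12 and 8.93 CPM at day 8, and 5.63, 5.53 and 6.01 CPM in CiPC. No groups of this series overlapped, and each later group was below the earlier ones. Inhba fell by 4.82 ± 0.038 (log2, SE) at day 5 against MEF (adjusted p = 3.51e-13) and by a further 2.14 ± 0.072 at day 8 against day 5 (adjusted p = 2.72e-08). The CiPC to day 8 difference, -0.60 ± 0.092, did not reach 2-fold. In CiPC the mean was 0.452% of the MEF mean (5.72 ± 0.256 against 1268 ± 41.7 CPM, SD, n = 3 each).

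Tgfb1, the TGF-beta ligand best known from platelets, immune cells and fibrotic tissue, followed a different course. Its level was 50.8, 46.3 and 52.0 CPM in MEF, 14.96, 18.5 and 17.3 CPM at day 5, 20.3, 27.4 and 27.2 CPM at day 8, and 10.1, 8.43 and 7.18 CPM in CiPC. The groups did not overlap, and day 8 lay between day 5 and MEF. It fell by 1.50 ± 0.083 at day 5 against MEF (adjusted p = 1.17e-07) and by 1.44 ± 0.15 in CiPC against day 8 (adjusted p = 3.10e-05), while the day 8 to day 5 difference of 0.53 ± 0.12 was under 2-fold.

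Tgfb2, the ligand of the family that is most prominent in the eye and in neural tissue, was the exception. It stood at 124, 129 and 128 CPM in MEF, 342, 336 and 352 CPM at day 5, 288, 308 and 279 CPM at day 8, and 273, 281 and 321 CPM in CiPC. All 9 treated libraries were above all 3 MEF libraries. Tgfb2 rose by 1.43 ± 0.034 at day 5 against MEF (adjusted p = 2.77e-10), to 271% of the MEF mean. It then differed little: day 8 was 0.24 ± 0.050 below day 5, which is under 2-fold, and CiPC and day 8 overlapped, with a 95% interval of the difference of -0.18 to 0.17. CiPC remained above MEF by 1.19 ± 0.067 (adjusted p = 3.39e-07).

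Ctgf, encoding connective tissue growth factor (CCN2), a secreted matricellular protein and standard reporter of YAP and TGF-beta activity, had the widest range in culture. Its level was 2387, 2351 and 2418 CPM in MEF, 10.3, 9.96 and 9.51 CPM at day 5, 5.57, 6.99 and 6.10 CPM at day 8, and 325, 330 and 347 CPM in CiPC. At day 5 and day 8 it averaged 0.416% and 0.261% of the MEF mean, and in CiPC 14.0%. Ctgf fell by 7.77 ± 0.038 at day 5 against MEF (adjusted p = 3.94e-14), was lower at day 8 than at day 5 by under 2-fold, and rose by 5.54 ± 0.084 in CiPC against day 8 (adjusted p = 2.12e-10), a 53.7-fold difference of means. CiPC were still lower than MEF by 2.83 ± 0.045.

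Cyr61, the related CCN1 protein and also a standard YAP target, fell less, and in CiPC it stood slightly above MEF. MEF libraries measured 873, 876 and 895 CPM, day 5 libraries 102, 107 and 105 CPM, day 8 libraries 210, 206 and 202 CPM, and CiPC libraries 965, 973 and 990 CPM. None of these groups overlapped. Cyr61 fell by 3.06 ± 0.032 at day 5 against MEF (adjusted p = 1.56e-12) and rose by 2.24 ± 0.049 in CiPC against day 8 (adjusted p = 1.26e-09). The day 8 difference to day 5, 0.97 ± 0.046, missed the 2-fold threshold narrowly. CiPC averaged 976 ± 13.0 CPM against 882 ± 11.6 CPM in MEF (SD, n = 3 each). That difference of 0.15 ± 0.041 (95% interval 0.05 to 0.24, adjusted p = 0.00965) was larger than the spread of the replicates but was not called. After quantile scaling it was 0.90, still under 2-fold, so the size of this difference depends on the scaling.

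Thbs1, encoding thrombospondin-1, a matrix glycoprotein that can activate latent TGF-beta, declined to day 8 and stayed low. Its level was 14170, 14609 and 14419 CPM in MEF, 2368, 2357 and 2407 CPM at day 5, 476, 491 and 494 CPM at day 8, and 375, 372 and 367 CPM in CiPC. It fell by 2.60 ± 0.026 at day 5 against MEF (adjusted p = 1.18e-12) and by 2.29 ± 0.041 at day 8 against day 5 (adjusted p = 5.94e-10). CiPC were below day 8 in every library, by 0.39 ± 0.049, which is under 2-fold. Thbs1 did not share the CiPC rise of Ctgf and Cyr61: its CiPC mean was 2.58% of the MEF mean.

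Tgfbi, a secreted matrix protein named for its induction by TGF-beta, was the other member above MEF at day 5. It measured 43.6, 45.2 and 44.1 CPM in MEF, 78.8, 80.4 and 80.2 CPM at day 5, 29.6, 27.9 and 26.9 CPM at day 8, and 7.53, 8.07 and 7.12 CPM in CiPC. The groups did not overlap. The day 5 difference to MEF, 0.83 ± 0.042 (adjusted p = 5.86e-08), was under 2-fold. Tgfbi then fell by 1.47 ± 0.059 at day 8 against day 5 and by 1.77 ± 0.089 in CiPC against day 8 (adjusted p = 8.10e-08 and 2.26e-07).

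The feedback inhibitors Skil and Smad7 were much lower at days 5 and 8 than in MEF, and in CiPC they stood between those levels. Skil encodes SnoN, a corepressor that binds Smads and is induced by TGF-beta, and Smad7 encodes the inhibitory Smad that blocks the receptor. Skil measured 143, 138 and 145 CPM in MEF, 9.48, 9.81 and 8.59 CPM at day 5, 9.67, 10.1 and 6.94 CPM at day 8, and 47.6, 53.5 and 49.2 CPM in CiPC. Smad7 measured 90.0, 89.7 and 83.0 CPM in MEF, 1.95, 2.30 and 2.18 CPM at day 5, 0.895, 2.28 and 1.84 CPM at day 8, and 9.70, 8.72 and 8.35 CPM in CiPC. Days 5 and 8 overlapped for both genes, and both were far below MEF and CiPC. Skil fell by 3.80 ± 0.060 and Smad7 by 4.82 ± 0.077 at day 5 against MEF (adjusted p = 1.93e-11 and 2.05e-11). Both rose in CiPC against day 8, Skil by 2.38 ± 0.13 and Smad7 by 1.93 ± 0.19 (adjusted p = 4.33e-07 and 2.27e-05). In CiPC Skil reached 35.3% and Smad7 10.2% of the MEF mean.

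**Figure D2:**
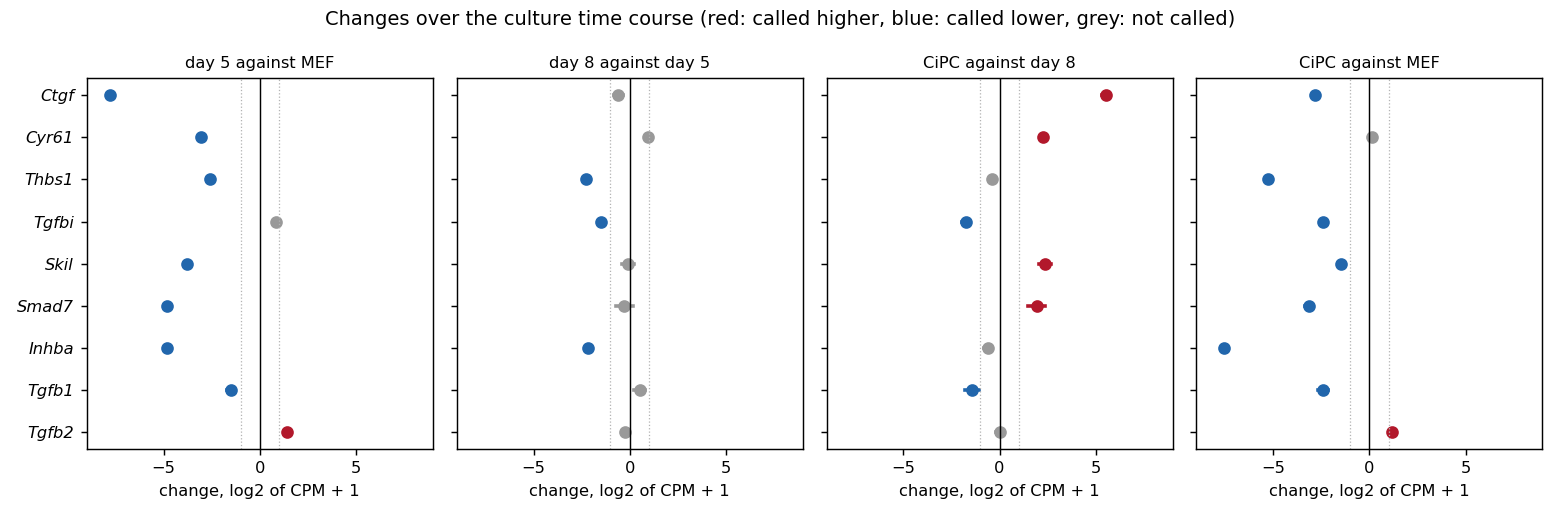
Differences on the log2(CPM + 1) scale with 95% intervals for the 9 genes at day 5 against MEF, day 8 against day 5, CiPC against day 8 and CiPC against MEF. Red marks genes called higher, blue genes called lower and grey genes not called; 7 genes are lower at day 5, 3 at day 8, and Ctgf, Cyr61, Skil and Smad7 rise in CiPC against day 8.

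Thus at day 8 against day 5, Thbs1, Tgfbi and Inhba were called lower and no member higher. Of 13259 genes tested, 3.01% were called lower, 3.61% higher and 6.61% in either direction. The median difference of the 9 genes was -0.27, beside 0.00 for all genes. In CiPC against day 8, Ctgf, Cyr61, Skil and Smad7 were called higher and Tgfbi and Tgfb1 lower, beside 15.2% higher, 16.6% lower and 31.8% in either direction of 13792 genes. With both directions present, the 9 genes had a median difference of -0.0021 there, beside -0.04 for all genes. In CiPC against MEF, Tgfb2 was called higher and the other members except Cyr61 lower, beside 16.5%, 17.2% and 33.7% (higher, lower and either direction) of 13719 genes. The median difference of the 9 genes was -2.42, beside -0.05 for all genes. The reductions ranged from 1.49 ± 0.061 for Skil to 7.56 ± 0.056 for Inhba on the log2 scale, with adjusted p = 4.15e-08 and 1.02e-11. These comparisons share libraries: MEF, day 5, day 8 and CiPC each serve in more than one of them.

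**Figure D3:**
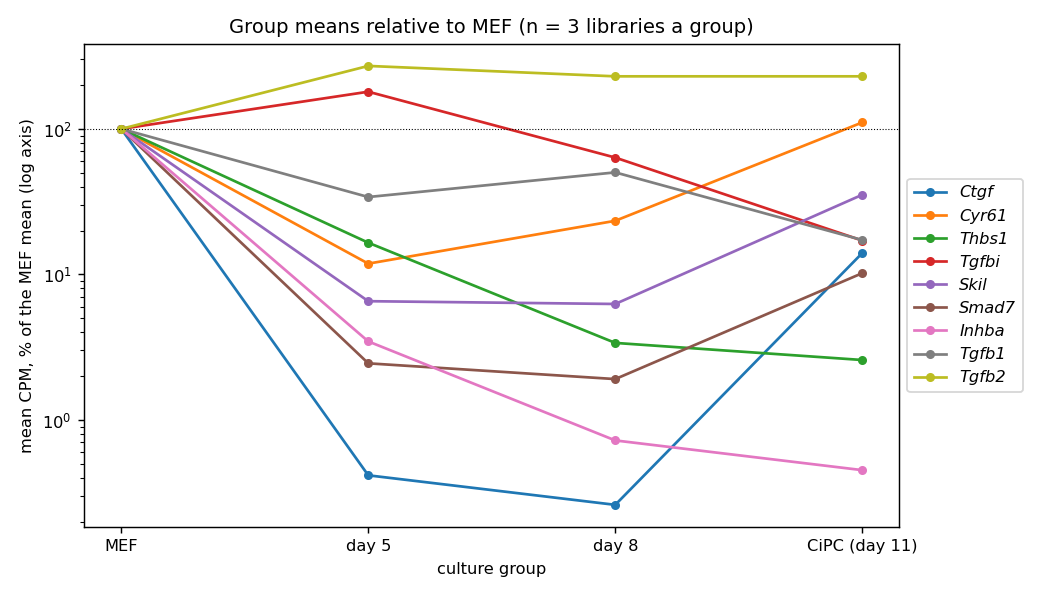
Group mean of each of the 9 genes at day 5, day 8 and CiPC as a percentage of its MEF mean, on a log axis. Tgfb2 stays above 100% throughout at 230% to 271%, Cyr61 returns to 111% in CiPC in the values as deposited, and Inhba ends at 0.452%.

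Contractile and fibroblast markers also changed in culture, in different directions. The summed level of 8 contractile genes, Acta2 (smooth muscle actin) the highest, was 12668 to 13008 CPM in MEF, 597 to 621 CPM at day 5, 219 to 262 CPM at day 8 and 3174 to 3431 CPM in CiPC, and Acta2 is a known TGF-beta target in fibroblasts. The course of this sum resembles that of Ctgf, but not every gene in it followed. In CiPC against day 8, 5 of the 8 were called higher, 2 lower and 1 not called. Des averaged 63.3 CPM at day 8 and 0.721 CPM in CiPC, and Tpm2 82.5 CPM and 20.3 CPM. The part of the contractile genes in the result was not tested. The sum of 10 fibroblast genes was instead higher at day 5 (44481 to 46549 CPM) and day 8 (47445 to 51290 CPM) than in MEF (8674 to 10304 CPM), with 8 of the 10 called higher, 1 lower and 1 not called at day 5 against MEF. In CiPC the fibroblast sum was 199 to 224 CPM. Pericyte markers summed to 401 to 422 CPM in MEF, 325 to 345 CPM at day 5, 226 to 266 CPM at day 8 and 17.7 to 24.1 CPM in CiPC. Macrophage markers summed to 277 to 305 CPM in MEF, 11.5 to 13.1 CPM at day 5, 21.0 to 23.1 CPM at day 8 and 59.9 to 64.9 CPM in CiPC. Markers of endothelium summed to 641 to 696 CPM in CiPC and 17.5 to 17.8 CPM at day 8, almost all of it Kdr in CiPC. The Müller glia sum was 2903 to 2963 CPM in CiPC, above all other groups. Its genes did not move together, since in CiPC against day 8, 4 of the 8 were called higher, 2 lower and 2 not called. Apoe averaged 684 CPM at day 8 and 163 CPM in CiPC. The part of these other markers in the members' changes was not tested.

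Other genes of both pathways were taken as lists that exclude the 9 genes. Among 17 TGF-beta response genes, 12 were lower and 3 higher at day 5 than in MEF, with a median difference of -2.26. Hmga2, a chromatin protein induced in mesenchymal transition, fell by 4.30. Higher instead were Postn (periostin, a matrix protein), which averaged 2667 ± 60.6 CPM at day 5 against 398 ± 4.16 CPM in MEF (SD, n = 3 each), and the transcription factors Snai1 and Snai2, by 1.38 and 1.06. Of 19 YAP targets, 13 were lower and 2 higher, with a median of -1.75. Ankrd1, a standard YAP target, averaged 12.6 ± 0.502 CPM at day 5 and 256 ± 5.65 CPM in MEF, and Crim1 and F3 (tissue factor) fell by 3.67 and 3.10, while Nt5e and Igfbp3 were higher by 3.09 and 3.07.

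The signaling components were mixed at day 5. Of 29 TGF-beta components tested, 12 were lower and 6 higher, with a median of -0.21. The ligand Tgfb3 averaged 61.6 ± 1.34 CPM at day 5 and 511 ± 12.9 CPM in MEF. The receptors Tgfbr3 and Tgfbr2 were higher, by 6.05 and 1.66, and so was Inhbb, the other activin subunit, by 3.15. Of 19 YAP components, 5 were lower and 1 (Sav1) higher, with a median of -0.69.

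**Figure D4:**
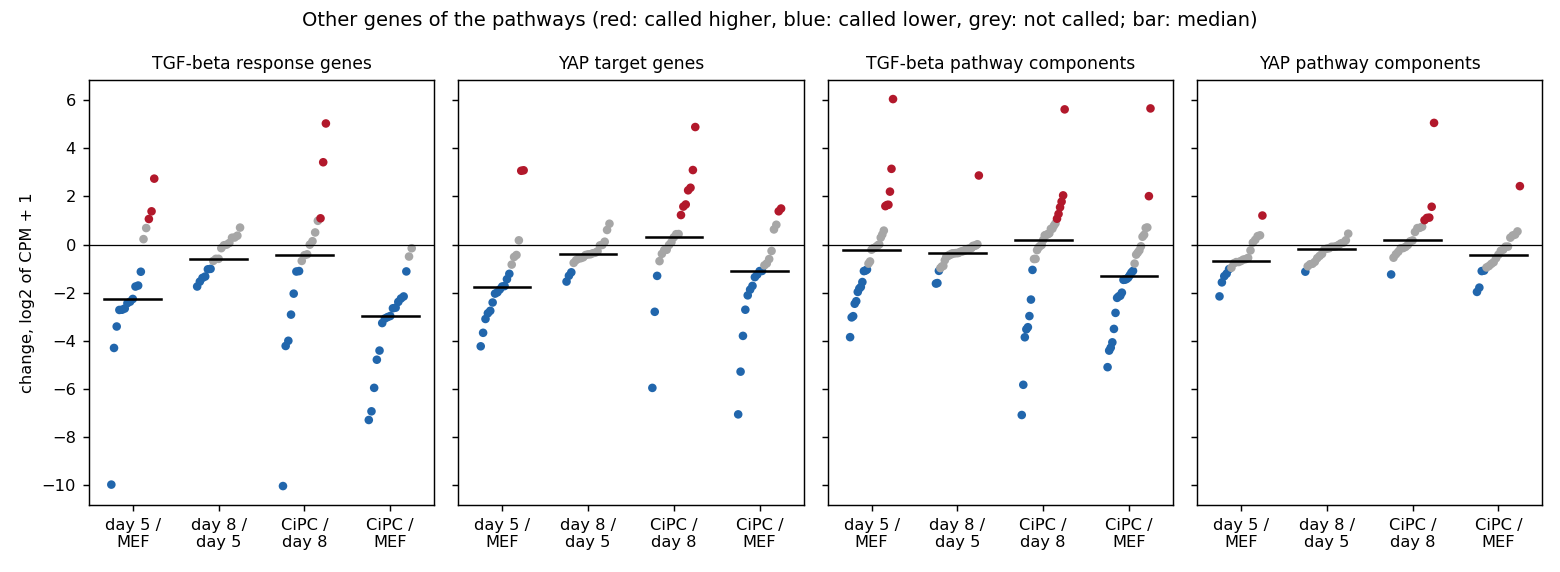
Differences on the log2(CPM + 1) scale of each tested gene in the lists of TGF-beta response genes, YAP targets, TGF-beta components and YAP components, for the 4 comparisons in culture, with a bar at the median and colours for calls (red higher, blue lower, grey not called). The TGF-beta response list has its median at -2.26 at day 5 against MEF and -2.97 in CiPC against MEF.

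At day 8 against day 5, 6 of 17 TGF-beta response genes and 3 of 19 YAP targets were lower and none of either list higher. Hmga2 fell by a further 1.75 and Crim1 by 1.54. In CiPC against day 8, the lists split. Among TGF-beta response genes 3 were higher and 7 lower. Hmga2 and Pmepa1 rose by 3.42 and 1.09, whereas Postn averaged 2.29 CPM in CiPC and 3447 CPM at day 8. Among 19 YAP targets, 7 were higher, 3 lower and 9 not called, with a median of 0.30. Nuak2, a kinase gene, rose by 4.89 and Crim1 by 3.10, and the matrix gene Ccdc80 fell by 5.97. Of the receptors, Tgfbr2 averaged 7.92 ± 0.453 CPM in CiPC and 509 ± 37.2 CPM at day 8, and Tgfbr3 fell by 7.09. Itgb8, an integrin subunit that releases active TGF-beta, averaged 194 ± 1.84 CPM in CiPC and 3.10 ± 1.29 CPM at day 8.

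Against MEF, CiPC had 15 of 17 TGF-beta response genes lower and none higher, with a median of -2.97, and Lox, a collagen cross-linking enzyme, fell by 7.30. Of 19 YAP targets, 11 were lower and 2, Nuak2 and Igfbp3, higher, with a median of -1.10. Ankrd1 averaged 5.58 CPM in CiPC, 9.65 CPM at day 8 and 256 CPM in MEF. Of 28 TGF-beta components 17 were lower and 2 higher, with a median of -1.32. Of 19 YAP components 4 were lower and 1 (Wwc1) higher, and for this list the share that was lower is near the 17.2% of all genes. Yap1 was among those lower, at 106 CPM in CiPC and 229 CPM in MEF.

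Compared with P5 rods, which like CiPC list no earlier series, CiPC had 7 of the 9 genes higher, Skil lower and Smad7 not called. Of 13546 genes tested, 24.8% were higher, 18.5% lower and 43.3% in either direction; the share of calls that were higher was 57.4%, and 46.6% after quantile scaling, which moved the median of all genes from -0.03 to -0.21. Ctgf measured 325, 330 and 347 CPM in CiPC and 2.13, 1.94 and 2.12 CPM in P5 rods, a 162-fold difference of means. Cyr61 measured 965, 973 and 990 CPM in CiPC and 6.27, 4.05 and 4.51 CPM in P5 rods, a 197-fold difference. The size of that difference depends on the rods compared. Cyr61 averaged 42.9, 34.5 and 41.1 CPM in P2, P4 and P6 rods. In P10, P14 and P28 rods it averaged 15.8, 4.01 and 0.393 CPM. Thbs1 measured 375, 372 and 367 CPM in CiPC and 2.61, 2.85 and 2.97 CPM in P5 rods, a 132-fold difference. No replicates of these groups overlapped, and the log2 differences were 6.77 ± 0.070, 7.38 ± 0.12 and 6.61 ± 0.068 (adjusted p = 7.07e-12, 3.77e-11 and 7.07e-12). The matricellular genes were thus the members farthest above P5 rods.

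The ligands were also higher in CiPC than in P5 rods. Tgfb2 averaged 292 ± 26.1 CPM in CiPC and 77.3 CPM in P5 rods, a difference of 1.90 ± 0.073, and Inhba and Tgfb1 were higher by 1.69 ± 0.098 and 2.39 ± 0.14. Tgfbi was higher by 2.70 ± 0.10. With a pseudocount of 0.25 the differences of Tgfb1 and Tgfbi were 3.05 and 3.78. Skil, by contrast, averaged 50.1 ± 3.07 CPM in CiPC and 111 CPM in P5 rods, a fall of 1.13 ± 0.068 (adjusted p = 1.74e-07). Smad7 overlapped between the groups at 8.92 ± 0.698 CPM in CiPC and 8.70 ± 1.60 CPM in P5 rods, with a difference of 0.04 ± 0.13 (95% interval -0.25 to 0.34); after quantile scaling the difference was -0.40, also not called. Of the other genes, 16 of 18 YAP targets were higher and 1 (Nt5e) lower in CiPC than in P5 rods, and of 17 TGF-beta response genes 9 were higher and 3 (Col7a1, Nox4 and Klf10) lower, with medians of 2.53 and 1.07, beside -0.03 for all genes and 2.39 for the 9 genes. Yap1 averaged 106 CPM in CiPC and 6.20 CPM in P5 rods. Markers of other cell types also stood higher in CiPC than in P5 rods. The contractile sum was 3174 to 3431 CPM in CiPC and 10.9 to 11.97 CPM in P5 rods, the fibroblast sum 199 to 224 CPM in CiPC and 15.5 to 19.3 CPM in P5 rods, and the macrophage sum 59.9 to 64.9 CPM in CiPC and 7.72 to 8.64 CPM in P5 rods. The Müller glia sum was 2903 to 2963 CPM in CiPC and 261 to 287 CPM in P5 rods. The pericyte sum was 17.7 to 24.1 CPM in CiPC and 2.39 to 2.44 CPM in P5 rods. The endothelial sum was 641 to 696 CPM in CiPC and 47.3 to 49.8 CPM in P5 rods, most of it Kdr (625 and 43.0 CPM). Pecam1 averaged 0.759 CPM in CiPC and 2.18 CPM in P5 rods. Of 5 endothelial genes tested there, 3 were called higher and 2 were not called. The part of these markers in the members' differences was not tested.

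P5 rods themselves were lower than MEF in 7 of the 9 genes, beside 30.5% lower, 24.5% higher and 55.0% in either direction of 14085 genes tested. The difference was -11.88 ± 0.045 for Thbs1, -9.61 ± 0.047 for Ctgf and -9.25 ± 0.053 for Inhba. It was -11.16 for Thbs1 after quantile scaling, and -9.89 for Inhba with a pseudocount of 0.25. Skil (-0.35 ± 0.049) and Tgfb2 (-0.71 ± 0.049) were lower in P5 rods by less than 2-fold. Of the lists, 16 of 17 TGF-beta response genes and 16 of 19 YAP targets were lower in P5 rods, and the exceptions called higher were Klf10 of the TGF-beta response genes and Nt5e and Gadd45a of the YAP targets. The lists' medians were -4.05 and -4.44, beside -0.09 for all genes and -5.10 for the 9 genes.

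In rods, most of these genes were scarce or declined with age. Tgfbi did not exceed 0.53 CPM in any rod library and was not tested for age, Tgfb1 did not exceed 2.15 CPM, and Inhba did not exceed 3.41 CPM. Over the 6 ages other than P5, from P2 to P28, 5 of the 8 genes tested had a falling slope on log2 age. Of 13884 genes, 32.6% fell, 21.4% rose and 54.0% did either; the share of calls that rose was 39.7%, and 51.1% after quantile scaling. All genes had a median fitted change of -0.31 from P2 to P28, so the members' changes are also given relative to it.

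Cyr61 had the steepest slope. It measured 42.7 and 43.2 CPM at P2, 34.0 and 35.0 CPM at P4, 53.8, 53.4 and 16.2 CPM at P6, 13.4, 7.43, 15.4 and 27.1 CPM at P10, 4.47, 4.66 and 2.91 CPM at P14, and 0.0645, 0.801, 0.395 and 0.311 CPM at P28. The replicates of P6 and of P10 were spread widely, but every P14 library was below all younger ones except P5 and every P28 library below all P14 ones. The fitted change was -5.63 ± 0.62 (adjusted p = 1.06e-07), or -5.32 relative to all genes. It was -4.88 after quantile scaling and -6.85 with a pseudocount of 0.25.

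Tgfb2 measured 45.3 and 48.3 CPM at P2, 50.6 and 53.9 CPM at P4, 91.5, 65.7 and 61.5 CPM at P6, 47.6, 32.9, 38.4 and 48.4 CPM at P10, 15.7, 13.5 and 13.8 CPM at P14, and 2.48, 6.08, 4.68 and 2.14 CPM at P28. Among the ages in the slope its mean was highest at P6 and declined after that, while P5 rods averaged 77.3 CPM. A single slope does not describe the rise before P6. The fitted change was -3.97 ± 0.62 (adjusted p = 1.12e-05), or -3.65 relative to all genes. It was -3.20 after quantile scaling and -4.58 without P2 replicate 1. Skil was the only member with its highest group mean in rods. It measured 205 and 260.0 CPM at P2, 235 and 225 CPM at P4, 182, 199 and 218 CPM at P6, 94.2, 80.6, 71.8 and 110.0 CPM at P10, 84.5, 68.0 and 87.9 CPM at P14, and 70.4, 37.8, 37.5 and 43.4 CPM at P28. P2, P4 and P6 rods lay above all P10, P14 and P28 rods, and the fitted change was -2.69 ± 0.27 (adjusted p = 3.77e-08), or -2.38 relative to all genes, and was -3.33 after quantile scaling. Smad7 measured 14.7 and 19.3 CPM at P2, 17.6 and 13.0 CPM at P4, 11.7, 13.1 and 10.2 CPM at P6, 5.28, 2.63, 6.40 and 4.92 CPM at P10, 4.63, 6.63 and 15.6 CPM at P14, and 3.68, 0.694, 0.71 and 2.03 CPM at P28. Several groups overlapped, but P2, P4 and P6 rods lay above all P10 and P28 rods. P14 replicate 3 stood apart from the other P14 libraries, which lay below all P2, P4 and P6 rods. The fitted change was -2.92 ± 0.46 (adjusted p = 1.25e-05), or -2.61 relative to all genes. It was -1.66 after quantile scaling (adjusted p = 0.0018), still called.

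Ctgf was at 1.94 to 5.73 CPM in every rod library except the P28 ones, which held 0.191 to 0.393 CPM. Its fitted change of -1.62 ± 0.49 (adjusted p = 0.00648) became -0.42 (adjusted p = 0.355) after quantile scaling and was then not called; with a pseudocount of 0.25 it was -2.55. Thbs1 was not called, at -1.13 ± 0.53 (adjusted p = 0.0661), and P4 held 0.531 and 9.10 CPM. It was called when P2 replicate 1, P2 replicate 2, P4 replicate 1 or P14 replicate 2 was left out, at -1.46, -1.53, -1.32 and -1.21, each time with limma's adjusted p between 0.0256 and 0.049. Inhba (-0.45 ± 0.38) and Tgfb1 (-0.63 ± 0.27) were not called. Rod marker sums were higher at P28 (346368 to 519252 CPM) than at P2 (3236 to 3326 CPM). Müller glia markers summed to 229 to 477 CPM at P28 and 918 to 930 CPM at P2. Of the 8 tested for age, 2 rose, 4 fell and 2 were not called. Endothelial markers summed to 16.3 to 42.6 CPM at P28 and 271 to 320 CPM at P2. Kdr averaged 282 CPM at P2 and 6.43 CPM at P28, whereas Pecam1 averaged 3.01 and 19.3 CPM. Of 6 endothelial genes tested for age, 1 rose, 2 fell and 3 were not called. The part of these marker changes in the slopes was not tested.

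**Figure D5:**
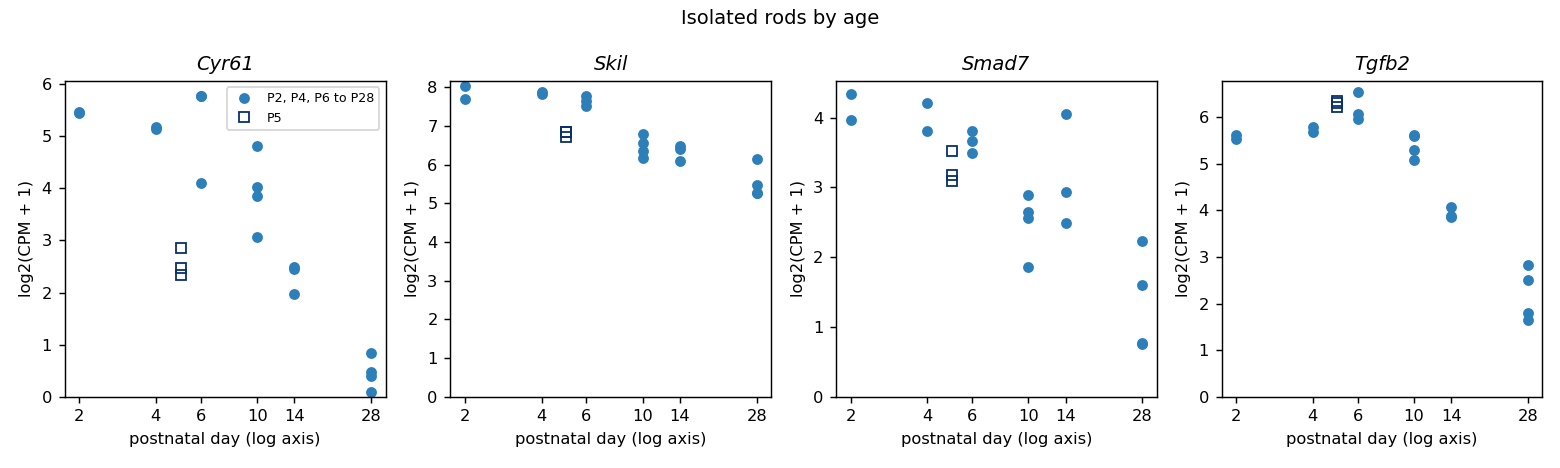
Normalized CPM on a log2(CPM + 1) axis against postnatal day on a log axis for Cyr61, Skil, Smad7 and Tgfb2 in rods, each point a library, with P5 rods as open squares. Cyr61 stands at 42.7 and 43.2 CPM at P2 and at 0.0645 to 0.801 CPM at P28.

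Of the other genes, 10 of 13 TGF-beta response genes and 10 of 16 YAP targets tested fell with rod age, with Col7a1 and with Nt5e, Gadd45a and Lats2 the exceptions that rose, and medians of -1.30 and -1.23. Klf10 and Tgif1 fell by 5.02 and 4.82, Nuak2 by 6.79 and Yap1 by 3.58. The rise of Nt5e was 2.34. P5 rods were also set against the mean of P4 and P6 rods, since only P4 and P6 rods list the earlier series. Only Cyr61 of 8 tested genes was called, lower in P5 rods (4.94 CPM against 37.8 CPM, -2.63 ± 0.34, adjusted p = 5.51e-05), beside 13.1% lower, 8.22% higher and 21.3% in either direction of 13652 genes. Skil was also lower in P5 rods, at 111 CPM against 215 CPM, by under 2-fold (-0.94 ± 0.088). The series and other differences in how the P5 rods were obtained cannot be told apart, and Müller glia and endothelial marker sums were lower in P5 rods too, at 261 to 287 and 47.3 to 49.8 CPM, than in P4 and P6 rods, at 621 to 1036 and 155 to 303 CPM. The endothelial sums were mostly Kdr, and of 4 endothelial genes tested 1 was called lower and 3 were not called.

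Across all 11 groups, MEF had the highest mean of Ctgf, Thbs1, Smad7, Inhba and Tgfb1, CiPC that of Cyr61, day 5 that of Tgfbi and Tgfb2, and P2 rods that of Skil. The lowest mean was in P28 rods for all except Skil and Smad7, which were lowest at day 8. Between groups next to each other in these orders, replicates overlapped in 3 of 10 pairs for Cyr61 and Tgfb2, 4 for Thbs1, 5 for Ctgf, Tgfbi, Skil and Inhba, 6 for Tgfb1 and 7 for Smad7. At P28, 6 of the 9 genes had a mean under 1 CPM, and in the cultured groups none did.

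The genes with the most similar pattern over the 11 group means, by Pearson's r of log2(CPM + 1), were C3ar1 and Hbegf for Ctgf (both r = 0.989), Ezr and Vim for Cyr61 (0.989 and 0.987), and Fblim1 and Eng for Thbs1 (0.996 and 0.993). For Tgfb1 they were Itgb3 and Itpripl2 (0.996 and 0.994), for Tgfbi Ptges3l and Emp3 (0.994 and 0.993), for Inhba Epha1 and Arhgap45 (0.991 and 0.988), and for Tgfb2 Sh3pxd2b (0.988). The feedback inhibitors had weaker matches, Dlc1 and Nhlrc2 for Skil (0.959 and 0.956) and Pik3c2a for Smad7 (0.931). Among the members, Thbs1 and Tgfb1 were most alike (r = 0.976), and Skil and Tgfbi least (r = -0.658). Over so few groups of shared libraries these values are descriptions only.

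In the GENCODE M21 annotation of GRCm38, all 9 are protein-coding genes. Ctgf lies on chromosome 10 at 24595442 to 24598683 on the plus strand and Cyr61 on chromosome 3 at 145646976 to 145649981 on the minus strand. Thbs1 lies on chromosome 2 at 118111876 to 118127133, Tgfb1 on chromosome 7 at 25687002 to 25705077 and Tgfbi on chromosome 13 at 56609523 to 56639562, all on the plus strand. Skil (chromosome 3, 31095058 to 31122577) and Inhba (chromosome 13, 16011851 to 16031621) are also on the plus strand, and Tgfb2 (chromosome 1, 186622792 to 186705989) is on the minus strand. Annotated genes on the opposite strand overlap Ctgf, Thbs1, Inhba and Tgfb2, and because the strand of the libraries is not given, reads from either strand cannot be told apart there.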

How the data were processed

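Values of 33 libraries from 36 listed samples were used, in 11 groups taken from the labels; 3 samples of P3 rods were not analysed here. Cells were sorted by reporter expression and each sample held 80 ng of total RNA, per the labels' protocols. Per the submitters' processing notes kallisto was used; for its version, the genome build, the library strand and the scaling method, nothing is given in the sources used here. The deposited table holds the authors' normalized CPM signal per gene, with column sums that differ between libraries. The counts behind it are unknown, so depth and its precision are unknown and no count model was fitted. There were 0 unused value columns, and 99.05% of gene identifiers matched GENCODE M21.

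Values were tested as log2(CPM + 1) with limma 3.58.1 in R 4.3.3 (linear model per group, moderated variance with mean trend) on genes at 1 CPM or more in 3 of the fitted libraries, or in 2 if a group had only 2. Folds of genes near 0 CPM are understated on this scale. Each comparison was fitted on its own groups; for rod age, the slope on log2 day was fitted over all rods except P5, including P10 replicate 3 and P14 replicate 3. The fits were tested on simulated data. Alternatives were a pseudocount of 0.25, no filter on low values, scaling by quantiles or by median of ratios, a fit shared by groups, the replicate number as a block and each library left out.

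The 9 genes and all lists were chosen with earlier results of these data known. All 9 are named; of each list, up to 4 called genes with the largest change, and called genes against the majority, could be named, and the 2 most similar genes of each member among genes averaging 10 CPM or more in some group. A few genes eligible under this rule are left unreported, without replacement.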

Additional observations from a re-analysis of the deposited data

How the results depend on the processing

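The number of the 9 genes called was the same under every alternative for day 5 against MEF (8), day 8 against day 5 (3), CiPC against day 8 (6), CiPC against MEF (8), CiPC against P5 rods (8), P5 rods against MEF (7) and P5 rods against P4 and P6 rods (1). With the replicate number as a block the counts did not change either (8, 3, 6, 8, 8 and 7 in the comparisons between groups of 3). The numbers were not taken as pairs, since the deviations of same-numbered libraries correlated at -0.40 to 0.17 and over 0.1 in 2 of 18 pairs. For rod age, 5 genes were called, 7 with a pseudocount of 0.25, 4 after quantile scaling, 5 without P10 replicate 4 and P14 replicate 3 together or P10 replicate 3 and P14 replicate 3 together (both added after seeing the data), and 5 to 6 with single libraries left out. With the pseudocount of 0.25, Thbs1 (-2.11) and Tgfb1 (-1.37) joined the rod age calls, and after quantile scaling Ctgf left them. No called gene reversed. The 7 results that did were not called under either setting. Quantile scaling gave 0.0957 for Tgfb2 in CiPC against day 8 (0.0269 with median-of-ratios scaling), -0.40 for Smad7 in CiPC against P5 rods, and 0.81 for Inhba and 0.0244 for Tgfb1 with rod age. It moved the median of all genes to 0.08 for rod age (-0.31 as reported, -0.19 with median-of-ratios scaling), to 0.11 for P5 rods against MEF (-0.09 as reported) and to 0.01 for P5 against P4 and P6 rods (-0.09 as reported). With single libraries left out, Skil at day 8 against day 5 ran from -0.160 to 0.0804, Tgfb2 in CiPC against day 8 from -0.0737 to 0.0445, Smad7 in CiPC against P5 rods from -0.0416 to 0.173, and in P5 against P4 and P6 rods Thbs1 from -0.43 to 0.93 and Tgfb1 from -0.0613 to 0.15. The causes were not tested. Genes near 0 CPM, such as Tgfbi, Tgfb1 and Inhba in rods, are limited by a depth that is not known.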
